A study of Mus musculus with 12 samples.

Results

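Gene expression was compared between 3 mouse kidneys treated with an antibody against complement protein C5 and 3 treated with an isotype control antibody. All 13124 genes of the deposited count table were used. These kidneys were 6 of the 12 of the study, taken by their labels. The anti-C5 kidneys (numbers 10, 11 and 12) came from mice given the antibody labelled BB5.1, and the isotype kidneys (4, 5 and 6) from mice given the control antibody labelled Iso. All 6 mice were male C57BL/6, received their antibody 24 h before unilateral warm ischaemia-reperfusion injury (IRI), a period without blood flow followed by its return, and were analysed 24 h after it. The kidneys were flushed with saline and RNA was taken from all their cells. Whether the organ sampled was always the operated one is not stated, the animals' age is not given, and the column headers name 1 sequencing lane for all samples. A further 3 IRI kidneys (7, 8 and 9), from mice given an antibody against the receptor of granulocyte colony-stimulating factor (anti-G-CSFR, labelled VR81), were the nearest comparison. The 3 sham kidneys (1, 2 and 3), from mice operated on without ischaemia and without antibody, gave the level without injury. Umod, a gene of kidney tubules only, stood at 3260 CPM or more in all 12 libraries, where CPM is the read count of a gene scaled to the size of its library.

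C5 circulates as an inactive protein made mainly in the liver and is cut during complement activation. The fragment C5a draws neutrophils and other myeloid cells through its receptor C5ar1, and the fragment C5b starts the membrane attack complex. In IRI the tubule cells of the outer medulla, above all those of the proximal straight tubule, lose their transport functions, switch on injury genes and release chemokines, and neutrophils enter the tissue within a day.

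For 3 genes named below, of a protease, an antioxidant enzyme and an enzyme of cholesterol synthesis, the 250 bases upstream are shown because they hold letters of a known factor motif. Sequences are from RefSeq promoters of build GRCm38.p6, read on the plus strand, which is the strand of all 3 genes. Capitals mark the motif. For Mmp10, at chr9:7502092-7502341, and Srxn1, at chr2:152105274-152105523, this is TGANTCA, the site of AP-1 factors such as Fos and Jun. For Hmgcs1, at chr13:119690101-119690350, it is TCACNCCAC, a sterol response element bound by SREBP factors.
Mmp10: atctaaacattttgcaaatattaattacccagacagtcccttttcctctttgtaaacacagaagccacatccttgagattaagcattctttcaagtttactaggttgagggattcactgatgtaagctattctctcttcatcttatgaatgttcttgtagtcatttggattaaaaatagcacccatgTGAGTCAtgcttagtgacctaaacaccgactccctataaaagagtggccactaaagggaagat
Srxn1: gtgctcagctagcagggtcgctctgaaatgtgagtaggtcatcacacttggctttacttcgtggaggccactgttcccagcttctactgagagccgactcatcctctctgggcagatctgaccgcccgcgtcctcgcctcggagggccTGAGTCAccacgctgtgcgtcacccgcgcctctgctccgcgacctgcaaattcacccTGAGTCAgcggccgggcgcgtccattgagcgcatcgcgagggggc
Hmgcs1: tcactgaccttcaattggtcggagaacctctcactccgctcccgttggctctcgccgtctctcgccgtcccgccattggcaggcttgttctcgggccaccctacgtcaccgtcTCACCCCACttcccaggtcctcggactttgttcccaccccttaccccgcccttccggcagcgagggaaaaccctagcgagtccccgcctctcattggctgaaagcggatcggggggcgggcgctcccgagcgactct
Counted from the RefSeq start at the end of each printed run, the AP-1 match began 63 bases before it in Mmp10 and 102 and 45 bases before it in Srxn1, and the sterol element 137 bases before it in Hmgcs1. The gene coordinates given further on are GENCODE's, whose starts for these genes differ from those of RefSeq. TGANTCA can also form the core of the longer antioxidant response element, the site of NRF2. Searched on both strands, TGANTCA occurred in 6.75% and TCACNCCAC in 1.05% of 32851 promoters of the same length. Of the 83 genes named by rule, 65 had a promoter in the table. AP-1 letters were found in 8 of these and the sterol element in 1. A match describes the letters and was not tested as a site.

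Between 13200930 and 16324215 reads were counted per kidney. Kidney 11 stood apart from the other anti-C5 kidneys in many genes, though not in all. To show this, each kidney was given a position in which the mean of sham kidneys is 0% and that of isotype kidneys 100%, over the 1389 genes higher and the 1862 genes lower in isotype than in sham kidneys by more than 2-fold. Over the higher genes, kidneys 10, 11 and 12 stood at 2.22%, 52.9% and -0.81%, and the isotype kidneys 4, 5 and 6 at 92.8%, 102% and 105%. Over the lower genes, kidneys 10, 11 and 12 stood at 0.152%, 26% and -3.97%, and kidneys 4, 5 and 6 at 86.4%, 105% and 109%. Kidneys 10 and 12 therefore lay within 5 points of sham, and kidney 11 lay between the groups. Kidney 11 also held more haemoglobin RNA. Hbb-bs, a beta globin gene of red blood cells, stood at 5.29, 116 and 23.2 CPM in kidneys 10, 11 and 12, against 4.39, 14.6 and 25.4 CPM in kidneys 4, 5 and 6, and the part of residual blood in the results was not tested. In the comparison with isotype kidneys, values without kidney 11 are given for list counts that change and for calls that change in genes named here. They are also given for called changes that move by more than 1.5 times.

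Anti-C5 kidneys differed from isotype kidneys across the majority of measured genes. With edgeR's quasi-likelihood test, 7919 genes (60.3%) passed a threshold of 0.05 on the p-value adjusted by Benjamini and Hochberg (BH), and are referred to as called. Of these, 4006 (30.5%) were higher and 3913 (29.8%) lower in anti-C5 kidneys, with median log2 changes of 0.92 and -0.67. More than 2-fold differences were called for 1821 genes higher and 1082 lower. The ranges of the groups did not overlap for 8230 genes (62.7%), 4161 higher (31.7%) and 4069 lower (31%). Without kidney 11, 8132 genes (62%) were called, 4051 higher (30.9%) and 4081 lower (31.1%). Of all calls, 7570 were shared by both fits, each with the same sign, while 349 were made only with kidney 11 and 562 only without it. The share of calls that were higher was 50.6% with TMM scaling and 37.8% when libraries were scaled by their totals alone, where the median of all log2 changes was -0.19, against -0.01 with TMM. Because so many genes differed, a list with about 30% of its genes called in one direction was at the background of the comparison.

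**Figure D1:**
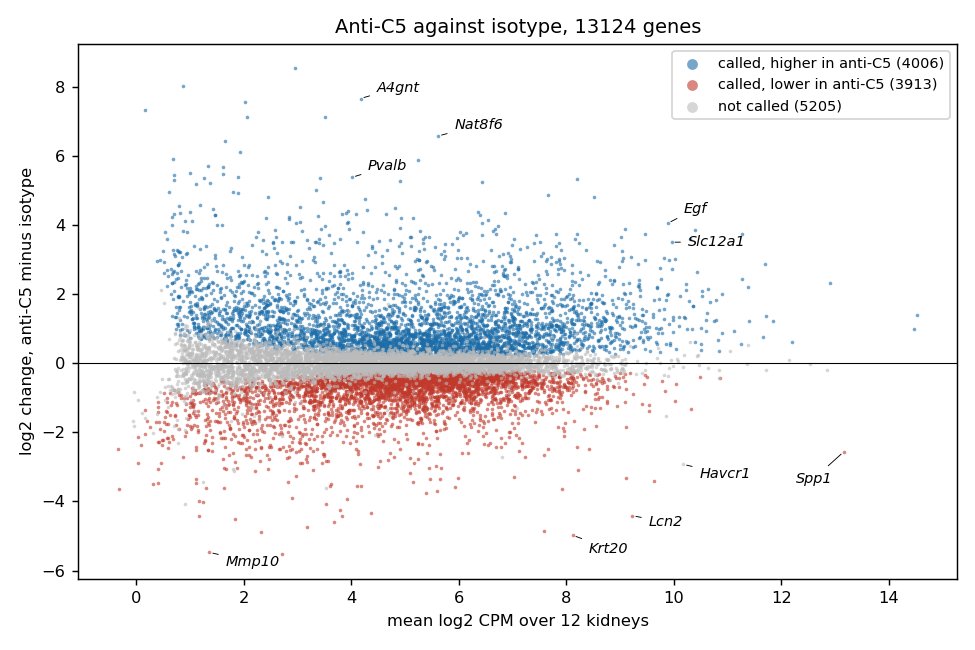
Log2 change of each gene (anti-C5 minus isotype, vertical axis) against its mean log2 CPM over 12 kidneys (horizontal axis). The 4006 genes called higher and 3913 called lower in anti-C5 kidneys spread over the whole range of expression, and Havcr1, with a log2 change of -2.93, lies among the genes not called.

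The largest rises were in genes almost silent in isotype kidneys. A4gnt (chr9:99612502-99622367), which encodes a glycosyltransferase that caps mucin sugars with N-acetylglucosamine, stood at 25.7, 11 and 29 CPM in kidneys 10, 11 and 12, against 0.0556, 0.184 and 0.0637 CPM in kidneys 4, 5 and 6. Every anti-C5 kidney was far above every isotype kidney, with 892 counts in all against 5 and a ratio of 218 after scaling (exact 95% interval 93 to 672, counting error only). Nat8f6 (chr6:85808024-85820954), an N-acetyltransferase gene of a family with near copies, stood at 71.3, 33.8 and 107 CPM in kidneys 10, 11 and 12, against 1.44, 0.246 and 0.446 CPM in kidneys 4, 5 and 6. Its groups were also fully apart, with a log2 change of 6.57 ± 0.56 (SE; edgeR, BH-adjusted p = 9.03e-06). Prok1 (chr3:107232797-107239707), the gene of the secreted peptide prokineticin 1, had 162 counts in anti-C5 kidneys against 1 in isotype kidneys, a ratio of 198 (35 to 7860). Fancd2os (chr6:113596761-113600715), an open reading frame opposite Fancd2, had 170 counts against 2, a ratio of 104 (28.3 to 864). The other 4 of the 8 largest rises, Gm4208, Gm38967, Gm36139 and Gm15348, are predicted genes with no role given here, with 193 to 613 counts in anti-C5 kidneys and 1 to 5 in isotype kidneys. Sham kidneys expressed A4gnt at 24.9, 29.7 and 25.1 CPM, so in kidneys 10 and 12 the level was in the sham range and in kidney 11 below it.

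Of the 8 largest falls, all but Akap12 were in genes whose mean in sham kidneys was below 2 CPM. The table holds no gene below 2.01 CPM in its third-highest kidney. Mmp10, Calcb, Vgf and Slc6a19os stayed below that level outside the isotype group, so they had an entry only through being high there. Krt20 and Slc7a11 reached it in fewer than 3 kidneys outside the isotype group and kidney 11. Falls in these genes were thus favoured by which genes the table holds, and their sizes and p-values only describe them. Mmp10 (chr9:7502352-7510240), the gene of the matrix-degrading protease stromelysin-2 whose upstream sequence is printed above, stood at 0, 0.579 and 0 CPM in kidneys 10, 11 and 12, against 5.06, 7.43 and 14.7 CPM in kidneys 4, 5 and 6. Only kidney 11 had counts among anti-C5 kidneys, so that no fold without it is given, and the groups did not overlap (log2 change -5.47 ± 0.80, edgeR BH-adjusted p = 0.000319). Krt20 (chr11:99428403-99438150), a keratin of stressed epithelium, stood at 1.27, 98.8 and 1.39 CPM in kidneys 10, 11 and 12, against 607, 1258 and 1332 CPM in kidneys 4, 5 and 6. Kidney 11 lay far above its group and still below every isotype kidney, and the log2 change was -4.98 ± 1.37 (adjusted p = 0.00911, edgeR), or -9.64 without kidney 11. Akap12 (chr10:4266380-4359470), a scaffold of protein kinase A, stood at 20.9, 39.3 and 12.2 CPM in kidneys 10, 11 and 12, against 207, 879 and 998 CPM in kidneys 4, 5 and 6. Here kidney 11 lay near its group and kidney 4 was the lowest isotype kidney (-4.84 ± 0.58, edgeR BH-adjusted p = 5.1e-05). Slc7a11 (chr3:49892526-50443614), the cystine importer that feeds glutathione synthesis, fell by 4.74 ± 0.64 on the log2 scale, Calcb, a calcitonin gene-related peptide gene at 0.0705 and 0 CPM in kidneys 10 and 12, by 4.87 ± 0.91 (-8.64 in the fit without kidney 11), and Cyp27b1, the enzyme that activates vitamin D, by 4.58 ± 0.86. Vgf, the precursor of secreted neuropeptides, stood at 0, 1.59 and 0 CPM in kidneys 10, 11 and 12, against 17.3, 10.1 and 9.75 CPM in kidneys 4, 5 and 6. It was called by edgeR (BH-adjusted p = 0.00208) and not by DESeq2 (adjusted p = 0.188), and no fold is given without kidney 11, since kidneys 10 and 12 were at 0. Slc6a19os, annotated antisense to the amino acid transporter gene Slc6a19, had a log2 change of -5.53 ± 0.77, the furthest from 0 among the falls with kidney 11. Without it Krt20 (-9.64), Calcb, Mmp10 and Vgf lay further from 0 than Slc6a19os (-6.96). For Mmp10 and Vgf this rests on kidneys 10 and 12 at 0 CPM. The strand setting of the counting is not given in the sources used here, so its reads and those of Slc6a19 may not be told apart.

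The measured complement genes were divided between anti-C5 and isotype kidneys, with some higher, some lower and most not called. Hc, the mouse gene of C5 itself, had no entry in the table, and neither had C5ar2, the second C5a receptor. C5ar1 (chr7:16246743-16259540), the main C5a receptor, stood at 1.9, 8.1 and 1.55 CPM in kidneys 10, 11 and 12, against 10.6, 7.74 and 9.24 CPM in kidneys 4, 5 and 6. Kidneys 10 and 12 were low and kidney 11 was inside the isotype range, so the groups overlapped, and the change was not called (-1.25 ± 0.54, edgeR BH-adjusted p = 0.0613). Without kidney 11 it was called at -2.40 (adjusted p = 0.000435, edgeR), and over all settings tried the adjusted p ran between 0.000145 and 0.192. C3ar1, the receptor of the related fragment C3a, stood at 2.12, 2.97 and 2.63 CPM in kidneys 10, 11 and 12, against 3.72, 3.19 and 2.74 CPM in kidneys 4, 5 and 6, and was not called.

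Of 16 measured complement components, 4 rose and 2 fell, shares below those of all genes (30.5% and 29.8%). Leaving out any sham kidney, or kidney 4, 6, 8 or 10, left 1 that fell. C8a (chr4:104815679-104876398), a subunit of the membrane attack complex, stood at 26, 8.9 and 24 CPM in kidneys 10, 11 and 12, against 1.67, 1.11 and 1.47 CPM in kidneys 4, 5 and 6. All anti-C5 kidneys were above all isotype kidneys, and C8a rose by 3.78 ± 0.42 (edgeR, BH-adjusted p = 3.22e-05), its partner C8g by 2.25 ± 0.36 and the lectin gene Mbl1 by 3.50 ± 0.40. Cfb (chr17:34856374-34862518), the protease of the alternative pathway, was the most abundant of the 4 by CPM, at 340, 314 and 355 CPM in kidneys 10, 11 and 12, against 165, 142 and 120 CPM in kidneys 4, 5 and 6. Here the 3 anti-C5 kidneys were close to each other and Cfb rose by 1.24 ± 0.14. Masp1, a lectin pathway protease, fell by 2.82 ± 0.49. The genes of C1q (C1qa, C1qb and C1qc) and of C3 were not called, with log2 changes between -0.09 and 0.47.

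Cfd, which encodes factor D and is strongly expressed by fat cells, also fell, at 0.141, 0.579 and 2.78 CPM in kidneys 10, 11 and 12, against 30.2, 3.32 and 6.43 CPM in kidneys 4, 5 and 6. Its call (-3.55 ± 1.42, edgeR BH-adjusted p = 0.0489) was lost without kidney 11 (adjusted p = 0.118). Other fat cell genes, looked up after this value was seen, moved with it. Adipoq, the adiponectin gene, stood at 0.0705, 0 and 0.928 CPM in kidneys 10, 11 and 12, against 6.78, 0.614 and 1.02 CPM in kidneys 4, 5 and 6, and Plin1, a lipid droplet coat gene, at 0.0705, 0 and 0.155 CPM against 3.28, 0.491 and 0.255 CPM. Both were highest in kidney 4, as Cfd was, neither was called, and the part of adherent fat in the Cfd result was not tested.

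Among 13 measured complement receptors and regulators, 3 rose and 2 fell, or 3 and 4 without kidney 11, while 5 rose without kidney 4 and 1 fell without kidney 5, 6 or 12. With all kidneys these shares were below the 30.5% and 29.8% of all genes. The risers were membrane regulators that protect host cells. Cd55, which breaks up convertases, stood at 26, 20.9 and 34.3 CPM in kidneys 10, 11 and 12, against 15.6, 14.1 and 13.3 CPM in kidneys 4, 5 and 6 and rose by 0.92 ± 0.22 (edgeR, BH-adjusted p = 0.00339). Cd59a and Cd59b, neighbouring copies whose products block the membrane attack complex, rose by 0.75 ± 0.15 and 1.93 ± 0.41, with reads that may be shared between them. Itgam, a subunit of complement receptor 3 on myeloid cells, fell by 2.11 ± 0.49 (-3.20 without kidney 11), and Serping1, the C1 inhibitor gene, by 0.64 ± 0.22. Clu, the fluid-phase regulator clusterin and a tubule injury gene, stood at 325, 1597 and 283 CPM in kidneys 10, 11 and 12, against 2829, 1743 and 1835 CPM in kidneys 4, 5 and 6. Its groups did not overlap, yet kidney 11 lay just under the isotype range and the change was not called (-1.54 ± 0.65, edgeR BH-adjusted p = 0.0572), while without kidney 11 it was (-2.81, adjusted p = 0.00079).

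Genes of working tubule segments were higher after anti-C5. Kidney 11 lay above every isotype kidney in 33 of 34 proximal and 15 of 18 loop and distal genes. Of 34 proximal tubule genes, 33 rose and none fell, with a median log2 change of 2.26. Of 18 genes of the loop of Henle and distal tubule 15 rose (median 1.58), and of 20 collecting duct genes 11 rose (median 0.57), with none lower, against 30.5% of all genes. G6pc, the glucose-6-phosphatase of gluconeogenesis, had the largest log2 change among the proximal genes. It stood at 621, 217 and 623 CPM in kidneys 10, 11 and 12, against 24.2, 16.5 and 10.9 CPM in kidneys 4, 5 and 6. Even kidney 11 held several times the highest isotype value, and G6pc rose by 4.82 ± 0.45 (edgeR, BH-adjusted p = 1.36e-05). Aqp1 (chr6:55336432-55348555), the water channel of proximal tubule and thin descending limb, stood at 1285, 685 and 1378 CPM in kidneys 10, 11 and 12, against 133, 145 and 130 CPM in kidneys 4, 5 and 6. Slc22a8 (chr19:8591254-8611835), the organic anion transporter OAT3, stood at 368, 306 and 457 CPM in kidneys 10, 11 and 12, against 101, 111 and 99.3 CPM in kidneys 4, 5 and 6. Both had fully separate groups and rose by 3.04 ± 0.24 and 1.86 ± 0.14 (edgeR BH-adjusted p = 7e-06 and 5.94e-06). The straight-segment transporter gene Slc7a13 rose by 3.66 ± 0.47, Slc34a1, the phosphate transporter, by 2.21 ± 0.20, and Lrp2, the endocytic receptor megalin, by 1.94 ± 0.24. Hnf4a, a transcription factor of proximal identity, rose by 1.40 ± 0.17. Slc6a19, the neutral amino acid transporter, was the 1 proximal gene not called, at 373, 212 and 246 CPM in kidneys 10, 11 and 12, against 136, 241 and 289 CPM in kidneys 4, 5 and 6.

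In the loop and distal tubule the differences varied more from gene to gene. Slc12a1 (chr2:125152505-125230002), the salt cotransporter that furosemide blocks, stood at 1543, 753 and 1138 CPM in kidneys 10, 11 and 12, against 106, 100 and 97.5 CPM in kidneys 4, 5 and 6. All anti-C5 kidneys were above all isotype kidneys, and Slc12a1 rose by 3.50 ± 0.27 (edgeR, BH-adjusted p = 5.66e-06). Egf, the epidermal growth factor precursor made by the distal nephron, stood at 1546, 536 and 1031 CPM in kidneys 10, 11 and 12, against 29, 90.5 and 68.9 CPM in kidneys 4, 5 and 6. Its rise of 4.05 ± 0.46 was exceeded in the list by that of Pvalb, the gene of parvalbumin in the early distal convoluted tubule, at 5.38 ± 0.61. Slc12a3, the thiazide-sensitive cotransporter of the same tubule, rose by only 0.65 ± 0.15. Umod, which encodes uromodulin, the protein of the thick ascending limb that is most abundant in urine, stood at 5062, 4130 and 4174 CPM in kidneys 10, 11 and 12, against 3260, 4957 and 4425 CPM in kidneys 4, 5 and 6. Its groups overlapped and it was not called (0.08 ± 0.16), although Slc12a1 of the same segment rose strongly. Slc8a1, the sodium-calcium exchanger, rose by 1.96 ± 0.18. Trpm6 and Trpv5, channels for magnesium and calcium, were the other 2 members not called.

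In the collecting duct 11 of 20 genes rose and 9 were not called. Avpr2 (chrX:73892102-73895502), the vasopressin receptor of principal cells, stood at 34, 20 and 36.6 CPM in kidneys 10, 11 and 12, against 8.83, 7.68 and 5.99 CPM in kidneys 4, 5 and 6. Groups were apart, and Avpr2 rose by 2.00 ± 0.26 (edgeR, BH-adjusted p = 7.94e-05). Slc4a1, the anion exchanger of acid-secreting intercalated cells and of red cells, stood at 71.7, 40.9 and 50.7 CPM in kidneys 10, 11 and 12, against 11.2, 5.1 and 1.78 CPM in kidneys 4, 5 and 6. It rose by 3.16 ± 0.43. None of the 4 measured haemoglobin genes was called, but all had log2 changes of at least 1.21. The part of red cells in the Slc4a1 result was not tested. The ammonia transporter gene Rhcg rose by 1.85 ± 0.24 and Aqp2, the vasopressin-regulated water channel, by 0.57 ± 0.19 with overlapping groups. The epithelial sodium channel gene Scnn1a stood at 134, 87.2 and 95.2 CPM in kidneys 10, 11 and 12, against 56.5, 120 and 118 CPM in kidneys 4, 5 and 6, and was not called. In bulk tissue, fewer cells of a type and less RNA per cell cannot be told apart.

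**Figure D2:**
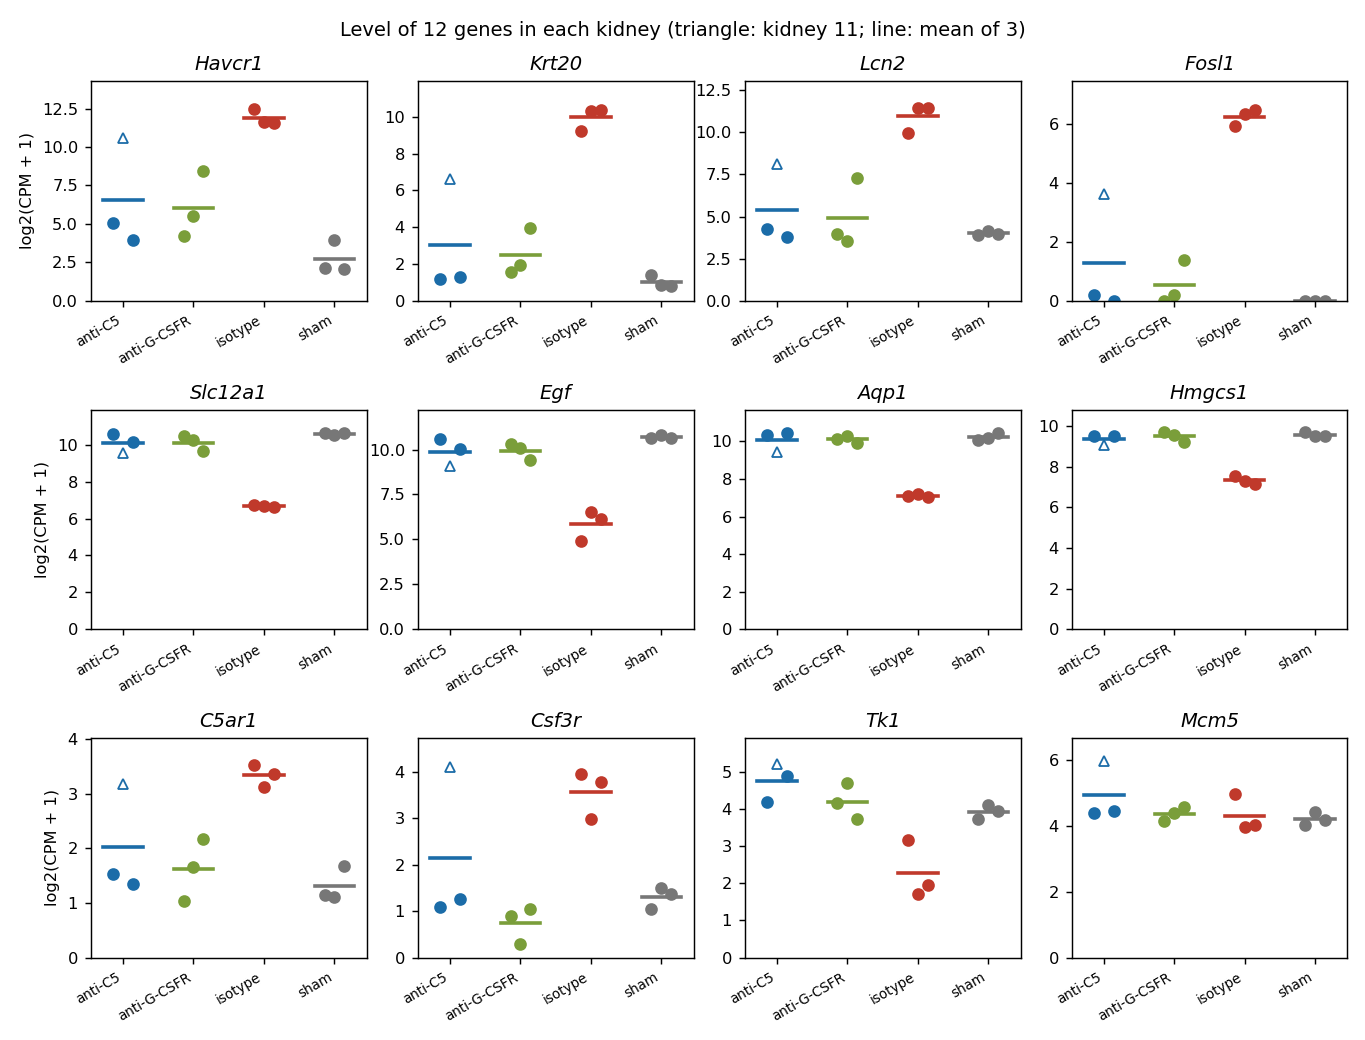
Level of 12 genes in each kidney as log2(CPM + 1), by group, with a line at the mean of 3 kidneys and a triangle for kidney 11. In Slc12a1, Egf, Aqp1 and Hmgcs1 all anti-C5 kidneys lie above all isotype kidneys, whereas in Havcr1, Krt20, C5ar1 and Csf3r kidneys 10 and 12 lie low and kidney 11 lies below the isotype kidneys (Havcr1, Krt20), among them (C5ar1) or above them (Csf3r).

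Mitochondrial genes rose with the tubule genes. All 30 nuclear-encoded respiratory chain genes rose, with log2 changes between 0.74 and 1.41 and a median of 1.04, and in every one the groups were apart. Of all genes, 30.5% were called higher and 31.7% were higher without overlap. Ndufs1 (chr1:63143596-63176833), a core subunit of complex I, stood at 416, 289 and 357 CPM in kidneys 10, 11 and 12, against 175, 158 and 152 CPM in kidneys 4, 5 and 6, and rose by 1.13 ± 0.14 (edgeR, BH-adjusted p = 5.53e-05). Sdha, the catalytic subunit of complex II, rose by 1.02 ± 0.13. Kidney 12 was the highest of all 12 kidneys in 23 of these 30 genes, against 1890 of all 13124 genes. Of 25 fatty acid oxidation genes 21 rose (median 1.06), or 22 without kidney 11, against 30.5% of all genes. Acadm, the medium-chain acyl-CoA dehydrogenase, stood at 1560, 765 and 1635 CPM in kidneys 10, 11 and 12, against 351, 284 and 279 CPM in kidneys 4, 5 and 6. Groups were apart and Acadm rose by 2.11 ± 0.28, its list's largest change, and Hadh, a dehydrogenase of the same spiral, rose by 1.81 ± 0.19. Acaa1a, the thiolase of peroxisomes, rose by 1.16 ± 0.12. Ppara and Ppargc1a, regulators of these genes, rose by 0.77 ± 0.13 and 1.06 ± 0.18. Cpt1a, the carnitine transferase that admits fatty acids to mitochondria, was not called, with 545, 444 and 443 CPM in kidneys 10, 11 and 12, against 389, 692 and 660 CPM in kidneys 4, 5 and 6.

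Genes of glucose use and oxygen sensing went both ways, 12 of 26 higher and 6 lower, or 13 and 5 without kidney 11. Of all genes, 30.5% were higher and 29.8% lower. Slc2a1 (chr4:119108711-119137983), the glucose transporter GLUT1, stood at 57.4, 54 and 43.7 CPM in kidneys 10, 11 and 12, against 125, 162 and 154 CPM in kidneys 4, 5 and 6. Kidney 11 lay within its group, and Slc2a1 fell by 1.51 ± 0.13 (edgeR, BH-adjusted p = 8.45e-06). Adm, the vasodilator peptide adrenomedullin, fell by 2.24 ± 0.21, Hk2, the inducible hexokinase, by 2.64 ± 0.73 (-4.80 without kidney 11), and Pkm, pyruvate kinase, by 0.82 ± 0.17. Higher were Bnip3, a mitophagy receptor, by 1.85 ± 0.22, Pfkm, a phosphofructokinase, by 1.44 ± 0.15, and Tpi1, triose phosphate isomerase, by 0.93 ± 0.13.

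Cholesterol synthesis genes were mostly higher, 11 of 20 rising and 1 falling (median 0.61), against 30.5% and 29.8% of all genes. Hmgcs1 (chr13:119690379-119708260), which encodes cytosolic HMG-CoA synthase and carries the sterol element printed above, stood at 730, 538 and 727 CPM in kidneys 10, 11 and 12, against 184, 156 and 144 CPM in kidneys 4, 5 and 6. Groups were apart, with a rise of 2.04 ± 0.17 (edgeR, BH-adjusted p = 8.45e-06). Mvd, the decarboxylase of mevalonate, rose by 2.28 ± 0.23, and Stard4 (chr18:33199355-33213862), a cholesterol carrier, by 1.77 ± 0.13.

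Tubule injury genes were lower after anti-C5, and here kidney 11 set how far. Of 29 measured members 25 fell and none rose, with a median log2 change of -2.34, and without kidney 11 all 29 fell with a median of -3.56, against 29.8% and 31.1% of all genes. The table holds no gene below 2.01 CPM in its third-highest kidney, and 6 of the 29 reached that level in fewer than 3 kidneys outside the isotype group and kidney 11, so that they had an entry only through being high there. The same held for 3 of 18 immediate early, 3 of 19 ATF4, 3 of 20 p53 and 3 of 20 monocyte and macrophage genes. It also held for 3 of 27 cell cycle, 3 of 10 endothelial activation and 2 of 17 cell death genes. In the NF-kappaB, NRF2, coagulation, complement component, and glycolysis and hypoxia lists it held for 1 gene each. Havcr1, the gene of kidney injury molecule KIM-1, stood at 31.7, 1506 and 14.5 CPM in kidneys 10, 11 and 12, against 5672, 3090 and 3032 CPM in kidneys 4, 5 and 6. Its groups did not overlap, but kidney 11 was far above its companions, and the change was not called (-2.93 ± 1.55, edgeR BH-adjusted p = 0.124). Without kidney 11 it was called at -7.40 (edgeR BH-adjusted p = 0.000823). Lcn2, the lipocalin NGAL, stood at 18.1, 281 and 13 CPM in kidneys 10, 11 and 12, against 1018, 2849 and 2773 CPM in kidneys 4, 5 and 6. It fell by 4.41 ± 1.31, and by 7.15 without kidney 11. Spp1, the secreted phosphoprotein osteopontin, was the most abundant of the list by CPM, at 1456, 10758 and 1244 CPM in kidneys 10, 11 and 12, against 23146, 27347 and 28860 CPM in kidneys 4, 5 and 6. Kidney 11 was again between the groups, and Spp1 fell by 2.56 ± 0.90, or by 4.29 without it. Some members moved less unevenly. Cryab (chr9:50751325-50756636), a small heat shock protein, stood at 179, 214 and 179 CPM in kidneys 10, 11 and 12, against 543, 590 and 697 CPM in kidneys 4, 5 and 6, so that kidney 11 lay close to its group, and fell by 1.68 ± 0.16 (edgeR, BH-adjusted p = 1.48e-05). Anxa1 and Vim, genes of an annexin and of the filament protein vimentin, fell by 1.75 ± 0.23 and 2.41 ± 0.36. Clu, Timp1, a protease inhibitor, and Vcam1, an adhesion molecule, joined Havcr1 as the members not called with kidney 11.

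**Figure D3:**
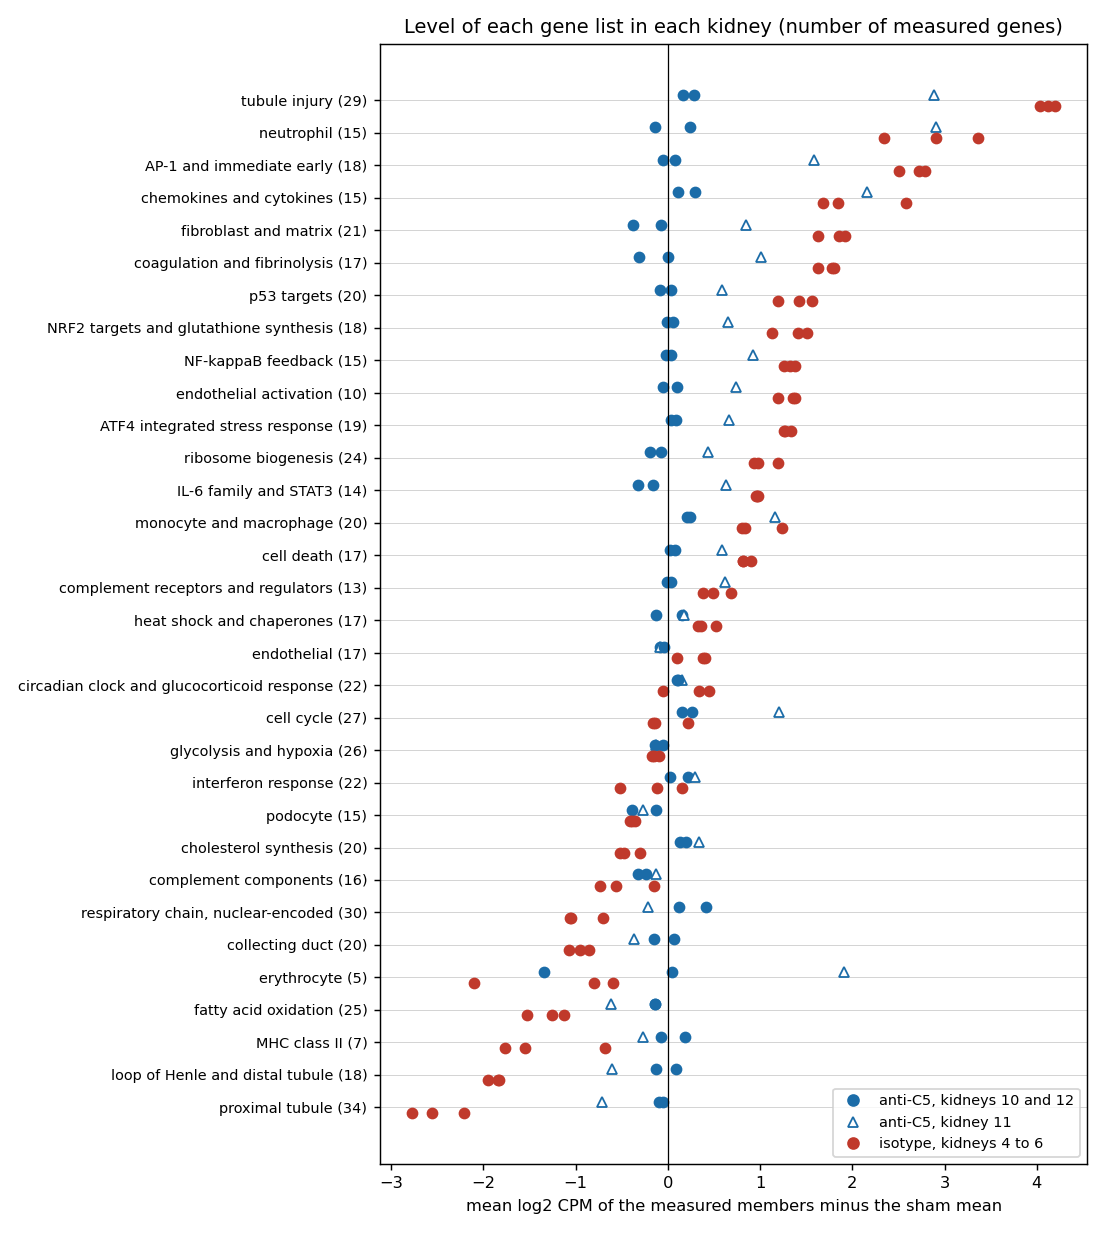
Level of 32 gene lists in each anti-C5 and isotype kidney, as the mean log2 CPM of the measured members minus the sham mean (horizontal axis, 0 is sham). Kidneys 10 and 12 lie close to 0 in nearly every list, while kidney 11 (triangles) lies between them and the isotype kidneys for tubule injury (2.88, against 4.03 to 4.20 in isotype kidneys) and proximal tubule genes (-0.72, against -2.77 to -2.21) and level with them for neutrophil genes.

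Immediate early genes were also lower, 17 of 18 falling (median -1.74, or -2.68 without kidney 11), against 29.8% of all genes. Fosl1, an AP-1 subunit, stood at 0.141, 11.3 and 0 CPM in kidneys 10, 11 and 12, against 61.1, 81 and 88 CPM in kidneys 4, 5 and 6. Groups were apart and Fosl1 fell by 4.32 ± 1.07 (edgeR, BH-adjusted p = 0.00706), or by 9.87 in the fit without kidney 11, where kidneys 10 and 12 were at or near 0. Myc (chr15:61985391-61990374), a growth regulator, stood at 5.78, 24.2 and 7.04 CPM in kidneys 10, 11 and 12, against 77.4, 84.2 and 82.5 CPM in kidneys 4, 5 and 6, and fell by 2.72 ± 0.47. Klf4, a zinc finger factor, fell by 1.73 ± 0.26, with kidney 11 at 13.4 CPM close to the 10.2 and 9.43 CPM of kidneys 10 and 12, against 21.2, 40.8 and 48 CPM in kidneys 4, 5 and 6. Klf2, a factor of endothelium, was the 1 member not called.

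Ribosome biogenesis genes fell together, all 24 of them, with log2 changes between -1.50 and -0.29 and no overlap of groups in any. Of all genes, 29.8% were called lower and 31% were lower without overlap. Without kidney 11, 23 were called, and the median was -1.14 in place of -0.96. Mybbp1a, a nucleolar regulator of ribosomal RNA transcription, had the largest change at 66.3, 95.7 and 47.7 CPM in kidneys 10, 11 and 12, against 209, 197 and 188 CPM in kidneys 4, 5 and 6. It fell by 1.50 ± 0.20 (edgeR, BH-adjusted p = 1e-04). Utp4 (chr8:106893636-106923088), part of the machinery that processes small-subunit RNA, fell by 1.23 ± 0.15 Ncl, nucleolin, by 1.28 ± 0.23 and Noc2l, a nucleolar factor, by 0.97 ± 0.12.

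Stress response lists pointed the same way but not in every gene. Of 19 genes of the ATF4 integrated stress response 15 fell and 1 rose, or 16 and 1 without kidney 11. Of all genes, 29.8% fell and 30.5% rose. Ppp1r15a (chr7:45522916-45526268), the phosphatase subunit that ends this response, stood at 11.3, 13.1 and 13.2 CPM in kidneys 10, 11 and 12, against 40.2, 51.1 and 63.8 CPM in kidneys 4, 5 and 6. All 3 anti-C5 kidneys were alike, kidney 11 included, and Ppp1r15a fell by 2.04 ± 0.17 (edgeR, BH-adjusted p = 8.21e-06). The gene that rose, Shmt2, an enzyme of mitochondrial one-carbon metabolism, stood at 245, 179 and 236 CPM in kidneys 10, 11 and 12, against 67.3, 55.3 and 58.4 CPM in kidneys 4, 5 and 6. Of 20 p53 targets 16 fell and 2 rose, against the same 29.8% and 30.5%. Cdkn1a, the cell cycle inhibitor p21, stood at 10.4, 35 and 5.95 CPM in kidneys 10, 11 and 12, against 120, 230 and 261 CPM in kidneys 4, 5 and 6, and fell by 3.57 ± 0.53. Phlda3 (chr1:135766119-135769136), an inhibitor of Akt signalling, fell by 1.69 ± 0.18, and Zmat3, an RNA-binding zinc finger protein, by 1.11 ± 0.14. Sesn1, a brake on mTOR, and Ccng1, cyclin G1, rose by 0.58 ± 0.19 and 0.49 ± 0.16, and 1 or none of these 2 was called without kidney 4, 5, 6, 10 or 12.

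Antioxidant genes under NRF2 split, 10 of 18 falling and 4 rising, or 9 and 4 without kidney 11. Of all genes, 29.8% fell and 30.5% rose. Srxn1 (chr2:152105516-152111376), sulfiredoxin, which repairs peroxiredoxins and carries the 2 AP-1 matches printed above, stood at 125, 280 and 124 CPM in kidneys 10, 11 and 12, against 1048, 1902 and 2323 CPM in kidneys 4, 5 and 6. Groups were far apart and Srxn1 fell by 3.32 ± 0.36 (edgeR, BH-adjusted p = 2.94e-05). Hmox1, haem oxygenase 1, fell by 2.66 ± 0.51 and Txnrd1, thioredoxin reductase, by 1.29 ± 0.17. Gstm1, an abundant glutathione transferase of the tubule with near copies, was higher, at 706, 614 and 777 CPM in kidneys 10, 11 and 12, against 323, 265 and 281 CPM in kidneys 4, 5 and 6, and rose by 1.27 ± 0.13. Nqo1, a standard NRF2 target, stood at 191, 228 and 252 CPM in kidneys 10, 11 and 12, against 240, 256 and 328 CPM in kidneys 4, 5 and 6, and was not called.

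Among 17 cell death genes 9 fell and 2 rose. Without kidney 11, 10 fell, and without kidney 6, 1 rose. Of all genes, 29.8% fell and 30.5% rose. The necroptosis genes Mlkl and Ripk3 fell by 2.51 ± 0.43 and 2.07 ± 0.42, and the apoptosis effectors Bak1 (chr17:27019810-27029009) and Bax by 1.11 ± 0.14 and 0.78 ± 0.14. Tnfrsf10b, the death receptor of TRAIL, fell by 1.80 ± 0.28. Mlkl, the protein that breaches the membrane in necroptosis, stood at 2.54, 6.51 and 1.55 CPM in kidneys 10, 11 and 12, against 17.7, 18.7 and 24.3 CPM in kidneys 4, 5 and 6, with no overlap. Gsdme, a pore-forming gasdermin, was higher by 0.82 ± 0.26, and Gsdmd, that of pyroptosis, was not called. Heat shock genes showed no common direction, with 7 of 17 falling and 4 rising, against 29.8% and 30.5% of all genes. Hspb1, a small heat shock protein, fell by 2.63 ± 0.56 and Bag3, a co-chaperone of Hsp70, by 0.75 ± 0.14, whereas Hspa5, the chaperone BiP of the endoplasmic reticulum, rose by 0.57 ± 0.16.

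Neutrophil genes gave the widest gap between the results with and without kidney 11. Of 31 listed genes 15 were in the table, 5 of which fell and 1 rose, against 29.8% and 30.5% of all genes. Without kidney 11, 14 of 15 fell and the median log2 change was -3.20 in place of -1.21, while 2 fell without kidney 6, 10 or 12 and 3 without kidney 5 or any sham kidney. These counts were shaped by which genes the table holds, since 11 of the 15 reached the table's lowest level of 2.01 CPM in fewer than 3 kidneys outside the isotype group and kidney 11. Such genes entered only because they were high there, and the count of 14 is a description of them. S100a8, a subunit of the antimicrobial protein calprotectin, stood at 1.83, 33.6 and 3.63 CPM in kidneys 10, 11 and 12, against 23.2, 7.19 and 24.8 CPM in kidneys 4, 5 and 6. Kidney 11 was above every isotype kidney and kidneys 10 and 12 below all of them, and the change was not called (-0.50 ± 0.79). Csf3r (chr4:126024550-126044440), the receptor of G-CSF and a marker of neutrophils, stood at 1.13, 16.2 and 1.39 CPM in kidneys 10, 11 and 12, against 14.4, 6.88 and 12.8 CPM in kidneys 4, 5 and 6. It showed the same split (-0.86 ± 0.75, edgeR BH-adjusted p = 0.335; -3.17 and 0.000109 without kidney 11, and 0.678 at most over the settings tried). The members that fell with kidney 11 included were Slpi, a protease inhibitor, at -3.06 ± 0.72 (-5.73 without it), Retnlg, a resistin-like protein, Il1r2, a decoy receptor, at -2.65 (-5.71 without it), Clec4d, a lectin receptor, at -1.80 (-4.33 without it), and Lrg1, a glycoprotein also made by other cells. The riser, G0s2, encodes a lipolysis inhibitor that is not specific to neutrophils and stood at 47.9, 27.9 and 89.8 CPM in kidneys 10, 11 and 12, against 19.7, 11.4 and 14.5 CPM in kidneys 4, 5 and 6. Kidney 11 was the highest of all 12 kidneys in 6 of the 15 genes. The summed level of the list was 65.45, 191 and 114 CPM in kidneys 10, 11 and 12, against 171, 105 and 210 CPM in kidneys 4, 5 and 6, which overlapped.

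Chemokine and cytokine genes followed the same division, with 4 of 15 falling and 1 rising, or 10 and 1 without kidney 11 and 2 falling without kidney 12. With kidney 11 both shares were below those of all genes (29.8% lower and 30.5% higher). Without kidney 4, 2 rose. Of the 15, 6 reached 2.01 CPM in fewer than 3 kidneys outside the isotype group and kidney 11. These had an entry only through being high there, and the count of 10 is a description of the measured genes. Cxcl1, a neutrophil attractant, stood at 1.27, 22.3 and 1.7 CPM in kidneys 10, 11 and 12, against 24.9, 13.3 and 16.8 CPM in kidneys 4, 5 and 6. Kidney 11 sat inside the isotype range and Cxcl1 was not called (-1.12 ± 0.83), although without kidney 11 its log2 change was -3.63. Il34 (chr8:110741829-110805924), a macrophage growth factor made by tubule cells, stood at 24.3, 53.3 and 25.4 CPM in kidneys 10, 11 and 12, against 97.5, 100 and 89 CPM in kidneys 4, 5 and 6, and fell by 1.47 ± 0.28 (edgeR, BH-adjusted p = 0.000904). Csf1, the related growth factor, fell by 1.64 ± 0.43, or by 2.52 without kidney 11. Cxcl12 (chr6:117168535-117181367), a homeostatic chemokine, went the other way, at 168, 102 and 174 CPM in kidneys 10, 11 and 12, against 50.7, 49.6 and 35.4 CPM in kidneys 4, 5 and 6, and rose by 1.71 ± 0.22. The attractant genes Cxcl2 and Ccl2 and the cytokine genes Lif and Il11 were called only without kidney 11.

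Genes of NF-kappaB, the factor behind many of these cytokines, and of its feedback inhibitors fell in 11 of 15 cases, or 14 of 15 without kidney 11. Of all genes, 29.8% fell, or 31.1% without kidney 11. Rela (chr19:5637483-5648130), a subunit, stood at 28.7, 43 and 24.6 CPM in kidneys 10, 11 and 12, against 62.7, 82 and 86.2 CPM in kidneys 4, 5 and 6, and fell by 1.26 ± 0.19 (edgeR, BH-adjusted p = 0.000239). Its inhibitor gene Nfkbia fell by 0.89 ± 0.14. In the IL-6 family list 8 of 14 fell and 2 rose, or 10 and 2 without kidney 11. Of all genes, 29.8% fell and 30.5% rose. Stat3, the transducer of these signals, stood at 73.1, 139 and 63.2 CPM in kidneys 10, 11 and 12, against 213, 276 and 269 CPM in kidneys 4, 5 and 6, and fell by 1.46 ± 0.32, and Il6ra, the interleukin-6 receptor, by 1.64 ± 0.33, while Il11ra1, the interleukin-11 receptor, rose by 0.87 ± 0.18. Interferon response genes largely did not pass the test, with 4 of 22 rising and none falling. Without kidney 11, 4 rose and 1 fell, and without isotype kidney 4, 8 rose. With all kidneys both shares were below the 30.5% and 29.8% of all genes. Rsad2 (chr12:26442746-26456452), the antiviral protein viperin, stood at 38.4, 33.6 and 39 CPM in kidneys 10, 11 and 12, against 22.3, 25.1 and 25.2 CPM in kidneys 4, 5 and 6, and rose by 0.61 ± 0.09. Its groups were apart with kidney 11 close to kidneys 10 and 12.

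Monocyte and macrophage genes divided, with 4 of 20 rising and 6 falling, near or below the background. Without kidney 11, 3 rose and 8 fell. Without kidney 10, 2 rose and 3 fell, and without kidney 5 or 6, 2 rose. Cd68 (chr11:69664213-69666153), a lysosomal protein of macrophages, stood at 6.77, 13.7 and 6.49 CPM in kidneys 10, 11 and 12, against 25.1, 27.6 and 30.5 CPM in kidneys 4, 5 and 6, and fell by 1.62 ± 0.26 (edgeR, BH-adjusted p = 0.000325). Cd14, the endotoxin co-receptor that injured tubule cells also express, was lower too, with 25.7 CPM in kidney 11 between 6.35 and 7.42 CPM in kidneys 10 and 12 and 43.4, 64.3 and 62.2 CPM in kidneys 4, 5 and 6. Higher were Csf1r, the receptor of both growth factors named above, at 60.9, 38.6 and 46.7 CPM in kidneys 10, 11 and 12, against 33.1, 31.7 and 31.2 CPM in kidneys 4, 5 and 6, and Mertk, an engulfment receptor, which rose by 0.77 ± 0.18. Adgre1, which encodes F4/80, rose by 0.59 ± 0.24 with overlapping groups and was not called without kidney 11. All 7 MHC class II genes rose (median 1.30), or 6 without kidney 11, against 30.5% and 30.9% of all genes. H2-Ab1 (chr17:34257689-34269419), a beta chain, stood at 59.7, 42.6 and 77.4 CPM in kidneys 10, 11 and 12, against 34.7, 19.1 and 18.9 CPM in kidneys 4, 5 and 6, and rose by 1.30 ± 0.29 with groups apart, as did H2-Eb1, another beta chain, by 1.35 ± 0.28. Of 18 lymphocyte genes Ighm alone was measured, the heavy chain of IgM, and it rose by 1.97 ± 0.31, while the other listed genes had no entry.

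Matrix and fibroblast genes were lower, 18 of 21 falling and none rising (median -1.30). Without kidney 11, 20 fell (median -1.92). Of all genes, 29.8% fell and 30.5% rose. Acta2 (chr19:34241090-34255590), smooth muscle actin, stood at 34.7, 73 and 32.5 CPM in kidneys 10, 11 and 12, against 155, 278 and 277 CPM in kidneys 4, 5 and 6, and fell by 2.34 ± 0.32 (edgeR, BH-adjusted p = 0.000115). Kidney 11 was the highest of its group and below kidney 4. Tnc, the provisional matrix protein tenascin C, fell by 3.04 ± 0.64, and Itga5, the fibronectin receptor subunit, by 2.47 ± 0.32. Col1a1 and Col3a1, the fibrillar collagens, were called only without kidney 11, and Dcn, decorin, in neither fit.

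Endothelial genes fell in 8 of 17 cases with none higher, and by less, against 29.8% and 30.5% of all genes. Pecam1 (chr11:106654217-106750628), the junction protein CD31, stood at 67.9, 78.5 and 71.8 CPM in kidneys 10, 11 and 12, against 106, 148 and 143 CPM in kidneys 4, 5 and 6, and fell by 0.86 ± 0.17 (edgeR, BH-adjusted p = 0.00105). Eng, the co-receptor endoglin, fell by 0.81 ± 0.13, and Plvap, Emcn and Tie1, also of endothelium, were not called. Of 10 endothelial activation genes 5 fell and 1 rose, or 3 fell without kidney 6, 10 or 12 and 6 without kidney 11. Of these 10, 3 had an entry only through being high in the isotype group and kidney 11, and 29.8% of all genes fell. Thbd (chr2:148404466-148408188), the anticoagulant receptor thrombomodulin, stood at 38.9, 49.8 and 36.1 CPM in kidneys 10, 11 and 12, against 107, 160 and 139 CPM in kidneys 4, 5 and 6, and fell by 1.70 ± 0.17, and Edn1, the constrictor peptide endothelin 1, fell by 2.12 ± 0.38. The riser, Icam2, was not called without kidney 5, 6, 10 or 12, and 2 genes rose without kidney 11. Of 17 coagulation genes 10 fell and 3 rose, or 11 and 3 without kidney 11, against the same 29.8% and 30.5%. F3, tissue factor, which starts clotting, fell by 1.75 ± 0.31, Plat, tissue plasminogen activator, by 1.60 ± 0.19, and the fibrinogen chains Fga and Fgb by 2.71 ± 0.98 and 3.75 ± 1.47 (Fgb by 5.83 without kidney 11). F5 (chr1:164151838-164220277), a cofactor of thrombin formation, rose by 1.87 ± 0.14 with kidney 11 at 11.1 CPM beside 14.7 and 11.4 CPM in kidneys 10 and 12, against 3.56, 3.13 and 3.5 CPM in kidneys 4, 5 and 6.

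Podocyte genes had no common direction, with 6 of 15 higher and 5 lower, shares near the 30.5% and 29.8% of all genes. Without kidney 11, 6 were higher and 6 lower. Clic3, a chloride channel family gene, rose by 1.63 ± 0.21. Col4a4 (chr1:82448423-82586849), a collagen of the glomerular membrane, stood at 273, 185 and 195 CPM in kidneys 10, 11 and 12, against 101, 112 and 103 CPM in kidneys 4, 5 and 6, and rose by 1.05 ± 0.15 (edgeR, BH-adjusted p = 0.000162). Wt1, a podocyte transcription factor, fell by 0.63 ± 0.18. Nphs1, nephrin, was not called.

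Of 22 genes of the circadian clock and the glucocorticoid response 7 rose and 6 fell, with a median log2 change of -0.20, shares near those of all genes (30.5% and 29.8%). Without kidney 11, 7 rose and 7 fell. The members described next were chosen after their values were seen, apart from Hlf and Tef. Hlf (chr11:90336536-90390895), an output factor of the clock, stood at 122, 103 and 147 CPM in kidneys 10, 11 and 12, against 12.7, 6.33 and 5.99 CPM in kidneys 4, 5 and 6. Groups were far apart and Hlf rose by 3.88 ± 0.26 (edgeR, BH-adjusted p = 4.18e-06), Dbp by 2.56 ± 0.45 and Tef by 2.07 ± 0.18, while the clock repressors Per2 and Per3 rose by 1.54 ± 0.19 and 1.88 ± 0.23. Arntl, which encodes the activator BMAL1, stood at 7.05, 3.04 and 2.16 CPM in kidneys 10, 11 and 12, against 11.7, 21.6 and 23.5 CPM in kidneys 4, 5 and 6 with no overlap (edgeR, BH-adjusted p = 0.0074). The labels give no clock time of sampling. Zbtb16, a zinc finger factor induced by glucocorticoids, stood at 1.83, 1.59 and 2.86 CPM in kidneys 10, 11 and 12, against 12.8, 55.1 and 66.8 CPM in kidneys 4, 5 and 6. Its anti-C5 kidneys were alike, kidney 4 was the low isotype kidney, and it fell by 4.42 ± 0.68 (edgeR, BH-adjusted p = 0.000233). The metallothionein genes Mt1 and Mt2, which bind zinc and copper, fell by 3.08 ± 0.40 and 3.62 ± 0.69. Per1, Tsc22d3 and Sgk1, also induced by glucocorticoids, had overlapping groups and were not called.

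Cell cycle genes set kidney 11 apart in another way. Of 27 measured genes 8 rose and 1 fell, or 5 and 2 without kidney 11. The 8 are near the background of 30.5%, and 5 rose also without kidney 5 or 6. Over the list, the mean log2 CPM minus that of sham kidneys was 0.26, 1.21 and 0.16 in kidneys 10, 11 and 12, against 0.21, -0.16 and -0.14 in kidneys 4, 5 and 6. Kidney 11 was the highest of all 12 kidneys in 21 of the 27 genes, against 3.94% of all genes, and was above every isotype kidney in 24. Mcm5, a subunit of the replication helicase, stood at 19.9, 61.8 and 20.8 CPM in kidneys 10, 11 and 12, against 30.3, 14.6 and 15.2 CPM in kidneys 4, 5 and 6. Kidney 11 was the highest and kidney 4 the next, and Mcm5 was not called (0.77 ± 0.40, or 0.02 without kidney 11). Tk1 (chr11:117815526-117826092), thymidine kinase, stood at 17.3, 35.7 and 28.5 CPM in kidneys 10, 11 and 12, against 8, 2.27 and 2.87 CPM in kidneys 4, 5 and 6. In this gene all anti-C5 kidneys were above all isotype kidneys, and Tk1 rose by 2.61 ± 0.43 (edgeR, BH-adjusted p = 0.000358). Mcm10, a helicase loading factor, stood at 8.39, 10.9 and 9.51 CPM in kidneys 10, 11 and 12, against 3.11, 1.35 and 2.23 CPM in kidneys 4, 5 and 6, and it and Tk1 were lower in isotype than in sham kidneys, which held 6.65 and 14.3 CPM on average. The mitotic genes Ccnb1, Aurka and Cdc20 were not called.

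**Figure D4:**
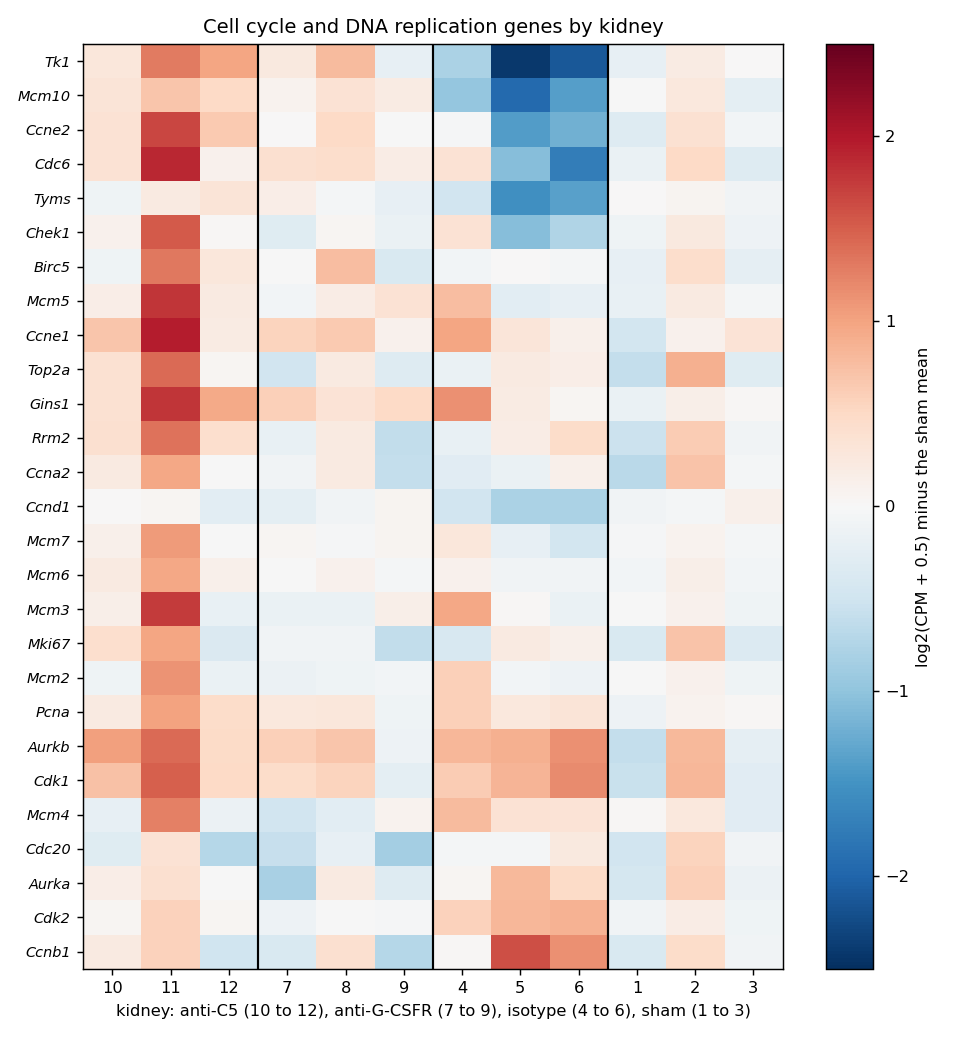
Level of each of 27 cell cycle genes (rows) in each kidney (columns), as log2(CPM + 0.5) minus the sham mean, red above and blue below sham. The column of kidney 11 is red in nearly every row, with Mcm5, Cdc6, Ccne1 and Mcm3 among the strongest, and kidneys 5 and 6 are blue for Tk1, Mcm10, Tyms, Cdc6 and Ccne2.

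The position of kidney 11 depended on the group of genes. With sham at 0% and isotype at 100%, it stood at 102% for neutrophil genes and 106% for chemokines and cytokines, 70.1% for tubule injury, 70% for NF-kappaB, 59% for immediate early genes, 58.2% for coagulation and 51.2% for ATF4 targets. It stood at 47.1% for fatty acid oxidation, 47% for matrix, 42% for ribosome biogenesis and p53 targets, 32.4% for the loop and distal tubule, 28.5% for the proximal tubule and 20.1% for MHC class II genes. Kidneys 10 and 12 stood between -20.6% and 14.4% in all of these lists. Neutrophil and cytokine genes of kidney 11 were at the isotype level while its transporter genes lay nearer to sham. Of the neutrophil and the cytokine genes, 11 of 15 and 6 of 15 had an entry only through being high in isotype kidneys and kidney 11. No proximal, loop or distal tubule gene did, so this contrast was partly set by which genes the table holds. Ppp1r15a, Slc2a1, Rsad2 and Zbtb16, described above, were among the genes in which kidney 11 lay with kidneys 10 and 12.

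Anti-C5 kidneys were next set against anti-G-CSFR kidneys, which share the isotype group as their control and are the most alike in treatment. No gene was called by edgeR (0 of 13124, 0%), with 207 genes (1.58%) at an unadjusted p below 0.05, or 523 without kidney 10 and 585 without kidney 12. The groups did not overlap for 562 genes (4.28%). limma-voom also called 0, and DESeq2 called 2, both genes of neutrophils that were named after their values were seen. Cxcr2, the receptor of Cxcl1 and Cxcl2, stood at 0.353, 8.46 and 1.08 CPM in anti-C5 kidneys 10, 11 and 12, against 0.132, 0.0746 and 0 CPM in anti-G-CSFR kidneys 7, 8 and 9. S100a8 stood at 1.83, 33.6 and 3.63 CPM in kidneys 10, 11 and 12, against 0.727, 0.224 and 0.151 CPM in kidneys 7, 8 and 9. In both genes every anti-C5 kidney lay above every anti-G-CSFR kidney, with log2 changes of 5.53 and 5.12 (DESeq2 BH-adjusted p = 0.0149 for each). Kidney 11 was far above kidneys 10 and 12 in both, and no change without it is given here. Both genes reached 2.01 CPM in fewer than 3 kidneys outside the isotype group and kidney 11. They therefore had an entry only through being high there. The median standard error of a log2 change over all genes was 0.155, which limits what could be called. Among neutrophil genes the edgeR error was larger for Csf3r (0.957), Slpi (1.33), Cxcr2 (1.33) and G0s2 (0.376). A change that was not called is not shown to be 0. The median of the 15 neutrophil genes was 3.47 in this comparison, that of the 34 proximal tubule genes -0.11 and that of the 29 tubule injury genes 0.78. edgeR called no member of these lists, and the 2 genes called by DESeq2 are neutrophil list members. Of the 15 neutrophil genes, 11 had an entry only through being high in the isotype group and kidney 11, which is an anti-C5 kidney. A positive median was thus favoured by which genes the table holds. The neutrophil list level above sham was -0.141, 2.91 and 0.245 in kidneys 10, 11 and 12. In kidneys 7, 8 and 9 it was -0.701, -0.927 and -0.664, so the difference came largely from kidney 11. On the tubule injury list kidneys 9 and 11 were the high kidneys of their groups, at positions of 40.2% (kidney 9) and 70.1% (kidney 11).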

How the data were processed

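Bulk RNA was sequenced from 12 mouse kidneys as strand-specific 100 bp single-end reads, per the labels' protocols. The authors deposited 1 table of raw read counts per Entrez gene, made with TopHat2 2.1.0, Bowtie2 2.2.5 and featureCounts on GRCm38.p4, per the submitters' processing notes. The table holds 13124 genes, and the gene with the lowest expression had 2.01 CPM in its third-highest kidney, so that weakly expressed genes have no entry. Depth was 13200930 to 16324215 counts per kidney. No 2 kidneys of a group were alike within counting error (chi-square per degree of freedom 5.45 to 65.3). Labels and headers number the kidneys but do not describe cultures or litters, so p-values measure the spread between these kidneys.

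Counts of all 12 kidneys were fitted with edgeR 4.0.16 (R 4.3.3), TMM factors, groups only, the robust quasi-likelihood test with 8 residual degrees of freedom, and Benjamini-Hochberg adjustment over 13124 genes at 0.05. The filter on low counts removed 0 genes. The script was tested on simulated data. CPM values are TMM-scaled. The standard errors given with edgeR changes are the absolute log2 change divided by the square root of the F statistic of that test. A list level is the mean log2 CPM (prior count 2) of its measured members minus the sham mean, and positions are given for lists whose isotype and sham means differ by at least 1. DESeq2 1.42.0 and limma 3.58.1, other scalings, filters and each kidney left out were alternatives. Ratios for genes with 1 to 5 isotype counts carry exact 95% intervals for counting error only.

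Genes were named by rule: C5 and G-CSF receptors, the 8 largest rises and falls called with groups apart (minimum mean log2 CPM 1), and the 2 members of each of 33 lists with the smallest p. Some genes, 1 of them chosen by this rule, are not reported here. Other members given as examples were chosen after their values were seen. The comparison, rules and lists were chosen with earlier results of these data known. Gene coordinates are GRCm38. Symbols were matched for 13074 of 13124 Entrez identifiers.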

Additional observations from a re-analysis of the deposited data

How the results depend on the processing

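Leaving out 1 kidney at a time gave 6644 to 8336 genes called between anti-C5 and isotype kidneys, 3443 to 4302 of them higher and 3156 to 4081 lower, and 0 to 0 between anti-C5 and anti-G-CSFR kidneys. Other settings gave 6429 (only the 6 libraries compared) to 9053 calls (limma-voom with sample weights), and the higher and lower counts stayed within 1.5 times those reported. Against anti-G-CSFR kidneys, DESeq2 called 2 genes and every other setting 0, with 104 to 585 at an unadjusted p below 0.05. Of 83 genes named by rule, 79 kept their side of the threshold in every setting. The others were C5ar1, Csf3r, Vgf and Hbb-bt, a beta globin called only without kidney 10 (log2 change 2.26, edgeR BH-adjusted p = 0.0367). No named gene called in the main fit or in a setting changed sign there. Signs of genes called in neither were not compared. With library totals alone the medians of podocyte, monocyte and macrophage, and complement component genes changed sign, to -0.02, -0.16 and -0.08, against 0.16, 0.01 and 0.10 with TMM, so no direction is given for these lists. The cause of these differences was not tested. No paired analysis was possible because the kidneys are numbered 1 to 12 and no number occurs in more than 1 group. With 3 kidneys a group and kidney 11 far from kidneys 10 and 12, genes of injury and inflammation had wide errors, and genes absent from the table could not be assessed.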

Other observations

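Genes of mineral and vitamin D handling, picked after their values were seen, were not among the lists. Kl, which encodes the klotho co-receptor of the hormone FGF23, stood at 819, 495 and 614 CPM in anti-C5 kidneys 10, 11 and 12, against 150, 124 and 110 CPM in isotype kidneys 4, 5 and 6. All anti-C5 kidneys lay above all isotype kidneys, and Kl rose by 2.33 ± 0.19 (SE; edgeR, BH-adjusted p = 8.45e-06). Pth1r, the parathyroid hormone receptor, rose by 1.88 ± 0.19 and Vdr, the vitamin D receptor, by 1.60 ± 0.16. Cyp24a1, the enzyme that inactivates vitamin D, stood at 198, 586 and 305 CPM in kidneys 10, 11 and 12, against 102, 36.4 and 44.5 CPM in kidneys 4, 5 and 6, with kidney 11 the highest, and rose by 2.57 ± 0.56. Cyp27b1, the activating enzyme, moved in the opposite direction, at 2.89, 1.16 and 1.08 CPM in kidneys 10, 11 and 12, against 9.33, 65.9 and 49.4 CPM in kidneys 4, 5 and 6.

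Some genes put kidney 11 with its group more closely than the injury genes did, and these too were picked after their values were seen. Gna14, a G protein subunit gene, stood at 20.1, 16.3 and 17.9 CPM in kidneys 10, 11 and 12, against 2.67, 2.64 and 3.12 CPM in kidneys 4, 5 and 6. It rose by 2.69 ± 0.12 (edgeR, BH-adjusted p = 9.18e-07). Angptl4, a secreted inhibitor of lipoprotein lipase, stood at 76.4, 61.3 and 59.2 CPM in kidneys 10, 11 and 12, against 166, 211 and 202 CPM in kidneys 4, 5 and 6, and fell by 1.56 ± 0.24. By contrast, Sox9, a factor of regenerating tubule cells, stood at 0.846, 10.3 and 0.541 CPM in kidneys 10, 11 and 12, against 22.7, 32.7 and 29.2 CPM in kidneys 4, 5 and 6. Kidney 11 lay between the groups, and Sox9 fell by 2.85 ± 0.80, or by 5.32 without kidney 11.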
